A study of Mus musculus with 2 samples.

Results

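A panel of 8 genes around NODAL and BMP signalling was compared between mouse embryonic stem cells overexpressing the long noncoding RNA lincU and control cells. The panel comprised the NODAL antagonist genes Lefty1 and Lefty2, the ligand gene Nodal, the inhibitory SMAD gene Smad7, the ID genes Id1, Id2 and Id3, and Bambi. Its genes were chosen by name, and each was measured by the probe sets annotated to it alone. Probe sets were found for 7 of the 8 genes, among 10313 genes measured in all, and Lefty2 was not measured. The 7 genes had 9 probe sets, with 2 each for Nodal and Id2.

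The study hybridised 1 array per group, from lincU-overexpressing cells and from control cells. Both cultures were of 46C, a mouse embryonic stem cell line with a reporter at Sox1, and both were grown on feeder cells in medium with 15% serum and LIF at 1000 U/ml. The feeder layer was taken off before the RNA was prepared. The labels do not say how lincU was expressed, what the control cells carried, or whether either culture was a single clone.

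NODAL is a secreted ligand of the TGF-beta family. It binds activin receptors together with a co-receptor, and SMAD2 and SMAD3 then act with SMAD4 and the DNA-binding protein FOXH1 on target genes that include Nodal itself and the Lefty genes. LEFTY proteins are secreted and block NODAL at its receptors, which closes a negative feedback loop, and SMAD7 is an intracellular inhibitor of both the NODAL and the BMP branch. BMP ligands signal through SMAD1 and SMAD5, and the Id genes are among their direct targets in embryonic stem cells grown in serum. ID proteins carry a helix-loop-helix domain but no DNA-binding region, and they hold E proteins away from DNA. BAMBI resembles a type I receptor that lacks a kinase and dampens TGF-beta family signalling.

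In RefSeq's table of promoter windows of GRCm38.p6, the entries of Nodal, Id2 and Id3 were searched for motifs. Those of Id2 and Id3 are shown because both genes had lower signals in overexpressing cells, by nearly the same amount on the brighter probe set of Id2 and the only one of Id3, though not on the dimmer probe set of Id2. Each window holds the 250 bases before the gene's start. Capitals mark GGCGCC, a GC-rich element bound by BMP-activated SMADs, or CAGAC on either strand, a motif bound by SMADs.
Id2, chr12:25096093-25096342, minus strand: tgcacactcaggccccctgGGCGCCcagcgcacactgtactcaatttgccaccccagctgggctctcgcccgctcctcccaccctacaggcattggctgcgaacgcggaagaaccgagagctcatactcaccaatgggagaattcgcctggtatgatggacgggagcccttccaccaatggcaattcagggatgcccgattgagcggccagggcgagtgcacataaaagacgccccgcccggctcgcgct
Id3, chr4:136143572-136143821, plus strand: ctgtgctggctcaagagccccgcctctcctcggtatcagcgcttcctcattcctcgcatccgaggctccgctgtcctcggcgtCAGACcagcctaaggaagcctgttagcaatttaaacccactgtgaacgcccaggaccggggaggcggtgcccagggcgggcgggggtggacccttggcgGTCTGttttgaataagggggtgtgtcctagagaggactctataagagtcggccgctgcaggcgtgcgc
The Id2 window held GGCGCC once, beginning 231 bases before the start, and CAGAC on neither strand. The Id3 window held CAGAC on its plus strand 167 bases before the start and on its minus strand, read as GTCTG, 68 bases before it, and no GGCGCC. The Nodal window held neither, nor the FOXH1 element AATNNACA on either strand, which was also absent from the Id2 and Id3 windows. No motif matches overlapped. Of the other panel genes, Id1, Lefty1 and Lefty2 had no window in the table, and Smad7 and Bambi were not searched. Only these 250 bases were searched, so sites further upstream or within the genes would not be seen. Whether any marked site is bound in these cells was not tested. Of all 32851 promoter windows of the same length, 9.59% held GGCGCC, 42.2% held CAGAC and 10.9% held AATNNACA.

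The values were log2 signals, and a difference is the overexpression signal minus the control signal. A probe set is called bright here if the array on which it was higher reached the median of that array's named probe sets, a log2 signal of 7.90 for overexpressing and 7.96 for control cells. All 9 panel probe sets were bright. With 1 array per group there is no replicate check and no test, and precision is limited by the number of arrays. The repeated measurement at hand is the difference seen by several bright probe sets of the same gene, which varied with an SD of 0.23 over 1732 genes. With these genes divided by signal into 3 groups of near equal size, that SD was 0.30 in the dimmest, 0.22 in the middle and 0.17 in the brightest group. It holds no variation between cultures.

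In overexpressing cells Lefty1 and the 3 ID genes had lower signals than in control cells, while Nodal, Smad7 and Bambi had higher ones. Lefty1 was 1 of 7 measured genes at least 2-fold lower, against 1.3% of all 5609 bright genes, and none was at least 2-fold higher, against 1.53%. At 1.5-fold, Lefty1 and Id1 were lower, 2 of 7 against 6.69% of all bright genes, and none was higher, against 4.65%. By any amount 4 of 7 were lower, against 49.8% of bright genes, and 3 of 7 were higher, against 50.2%. The median difference of the 7 genes was -0.56, against 0.00 for all bright genes. It was -0.30 with probe sets averaged. Without _s_at, _x_at and _a_at probe sets, which left 5 genes of which 2 were lower, it was 0.18, on the other side of 0. The panel was chosen with earlier results of these data known, so these counts are a description. In bulk RNA, fewer cells expressing a gene and less of its RNA per cell cannot be told apart.

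**Figure D1:**
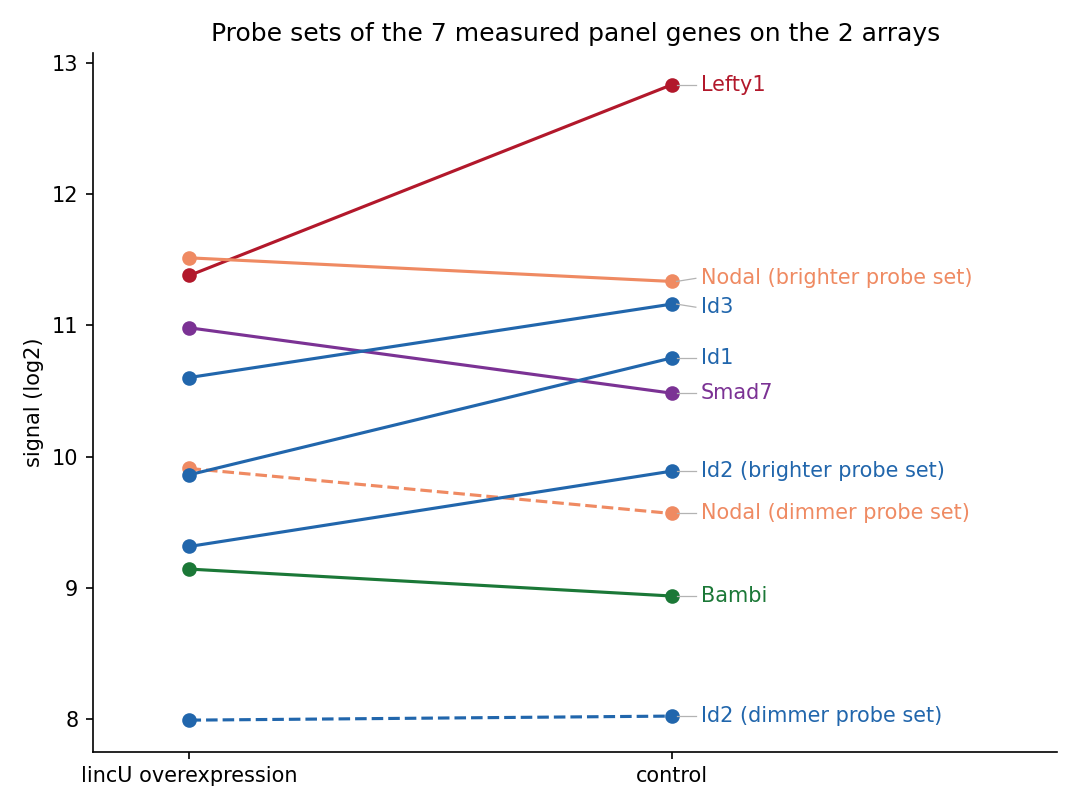
Log2 signal of each of the 9 panel probe sets on the overexpression array (left) and the control array (right), 1 array each, with dashed lines for the dimmer probe set of Nodal and of Id2. Lefty1 lies at 11.38 and 12.83, and the lines of Smad7, Nodal and Bambi slope the other way.

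Lefty1, the feedback antagonist of NODAL, had a log2 signal of 11.38 in overexpressing cells and 12.83 in control cells. This is a difference of -1.45, so the signal was 2.74-fold lower, and 6.24 times the SD between probe sets of a gene. Only 19 of the 5609 bright genes, Lefty1 included, had a difference as low. In control cells Lefty1 was at or above 96.1% of named probe sets, and in overexpressing cells at or above 87.3%. It was measured by 1 probe set, of the _at type, which is designed to match a single transcript.

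Nodal, the ligand that LEFTY1 opposes, did not share this direction. On its brighter probe set it stood at 11.51 in overexpressing cells and 11.33 in control cells, a difference of 0.18. On its dimmer probe set it stood at 9.91 in overexpressing cells and 9.57 in control cells, a difference of 0.34. Both probe sets are of the _at type and gave the same sign, but the first difference lies within the SD of 0.23. Of all bright genes 24.1% had a difference at least as high as that of the brighter probe set.

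Smad7, the inhibitory SMAD that is itself induced by TGF-beta family signals, stood at 10.98 in overexpressing cells and 10.48 in control cells. The difference of 0.50 was the highest of the panel and 2.14 times the SD between probe sets. A difference at least as high was found in 6.24% of bright genes. Bambi, the decoy receptor gene, stood at 9.14 in overexpressing cells and 8.94 in control cells. Its difference of 0.21 was within the SD. Smad7 and Bambi, each with 1 _at probe set, thus lay on the opposite side of 0 from Lefty1.

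**Figure D2:**
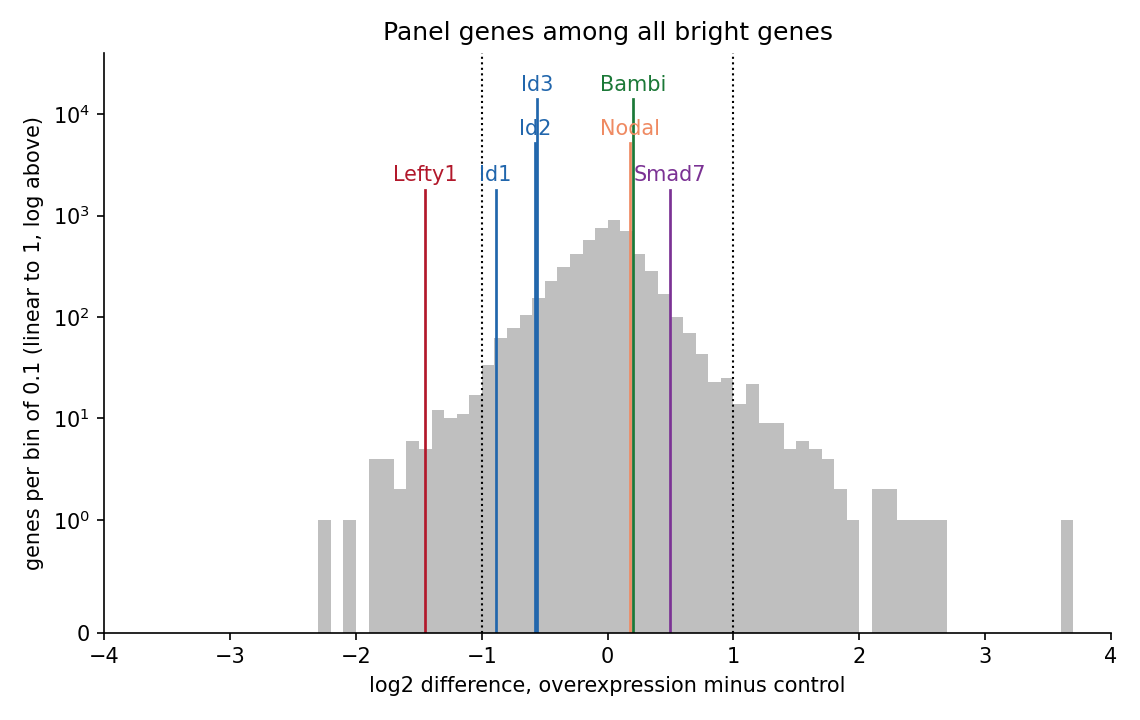
Log2 difference, overexpression minus control, of the 7 panel genes (coloured lines, on the brightest probe set of each) over the distribution of all 5609 bright genes in bins of 0.1. The vertical axis is linear to 1 and logarithmic above, line heights carry no value, and dotted lines mark 2-fold. Lefty1 lies beyond the lower dotted line at -1.45 and Id1 short of it at -0.89.

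Among the ID genes, Id1 differed most. Its signal was 9.86 in overexpressing cells and 10.75 in control cells, a difference of -0.89, or 1.85-fold lower. Of all bright genes 2.05% had a difference as low. Id3 stood at 10.60 in overexpressing cells and 11.16 in control cells, a difference of -0.56, and 7.24% of bright genes were as low.

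The 2 probe sets of Id2 did not give the same size of difference. The brighter stood at 9.31 in overexpressing cells and 9.89 in control cells, a difference of -0.57. The dimmer stood at 7.99 in overexpressing cells and 8.02 in control cells, a difference of -0.03. They were 0.54 apart, and the dimmer one lay just above the brightness limit. The SD of 0.30 among genes of low signal is that of single probe sets around their gene's mean. A gap between 2 probe sets varies more than that, so this SD does not measure it directly. Id1 and Id2 were measured by _a_at probe sets alone, a type that matches several transcripts of a gene, while Id3 was measured by an _at probe set. The ID differences of -0.89, -0.57 and -0.56, with Id2 on its brighter probe set, were 3.82, 2.47 and 2.40 times the SD over all genes. The dimmer probe set of Id2 stood at 0.13 times that SD. By its signal Id2 falls in the dimmest group, where the SD of 0.30 would give a smaller multiple. Id4, the remaining ID gene and no panel gene, had a difference of -0.17 on its bright probe set, from signals of 7.92 in overexpressing cells and 8.08 in control cells. Its dim probe set stood at -0.86. Id4 was added after its value was seen.

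Chromosome position was checked because stretches of chromosomes 14 and 6 differ together between these arrays. None of the 7 panel genes lies in these stretches. They lie on chromosomes 1 (Lefty1), 2 (Id1), 4 (Id3), 10 (Nodal), 12 (Id2) and 18 (Smad7 and Bambi). The 5 nearest bright genes on either side of Lefty1 had a median difference of -0.09, and the lowest of these 10 stood at -1.09. For Id1 and Id3 the medians of the 10 neighbours were -0.14 and -0.07, and for Id2 0.05. For Nodal and Smad7 they were 0.12 and 0.16, and the 5 bright genes after Bambi, the first bright gene in the order of its chromosome, had a median of -0.05. No such median was as far from 0 as the gene it surrounds, on the brightest probe set of each gene. The dimmer probe set of Id2, at -0.03, was nearer 0 than the median around it. A median of several genes tends to lie nearer 0 than a single gene, so this comparison cannot settle the part of position. The neighbours were added after the data were seen, and an effect of position was not tested.

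The other genes of the pathways were read from 11 lists, which hold 70 genes outside the panel. Of these 50 were measured and 32 were bright, with a median difference of -0.17. Among the 32, 19 were lower and 13 higher, against 49.8% and 50.2% of all bright genes. At least 1.5-fold lower were 4 of the 32, or 12.5%, and at least 1.5-fold higher 3, or 9.38%, against the 6.69% and 4.65% of all bright genes. Of the 30 bright genes outside the chromosome stretches, 3 were at least 1.5-fold lower and 2 at least 1.5-fold higher. The matching shares of all bright genes outside the stretches were not computed. At 2-fold, 1 of the 32 was lower, against 1.3% of all bright genes, and none was higher, against 1.53%. That gene, Ets1, was bright through the control array alone, as was Fst, 1 of the 4 lower at 1.5-fold.

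In the NODAL branch, Foxh1, whose product brings SMAD2 and SMAD3 to DNA, was lower on all 3 of its bright probe sets. The brightest stood at 8.55 in overexpressing cells and 9.35 in control cells, a difference of -0.80, and the other two at -0.65 and -1.09. The probe set at -1.09 was bright through the control array alone, with signals of 6.93 in overexpressing cells and 8.03 in control cells. The SMAD genes of this branch differed less, with Smad4 at -0.29 on its brightest probe set and Smad2 at 0.09. The other bright probe sets of Smad4 stood at -0.07 and -0.18. The 4 measured transducer genes had a median of -0.16. Smad3 was not measured. Among ligand and processing genes, Nodal and dim TGF-beta ligand genes included, 4 of 5 bright members were higher. The median of the 7 measured was 0.06. Inhbb, which encodes an activin subunit, had the largest of these differences, 0.67, from signals of 11.17 in overexpressing cells and 10.50 in control cells. Pcsk6, a gene of a convertase that cleaves the NODAL precursor, stood at -0.18.

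Receptor genes listed for the NODAL branch, which include the TGF-beta receptor genes Tgfbr1 and Tgfbr2, had a median of 0.01 over 5 bright members. Tgfbr1, added after its value was seen, stood at 0.01 and was itself the median, and Tgfbr2 stood at -0.53. The type II activin receptor gene Acvr2b stood at -0.43 and the type I receptor gene Acvr1b at 0.17. Inhibitors of the branch, Lefty1 and Smad7 among them, had a median of -0.32 over 8 members, all bright, with 5 lower and 3 higher. Apart from Lefty1 the largest differences were -0.60 for Fst, which encodes the activin-binding protein follistatin, and -0.56 for Tgif2, a corepressor gene. Fst was bright through the control array alone, at 7.81 in overexpressing cells and 8.41 in control cells.

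**Figure D3:**
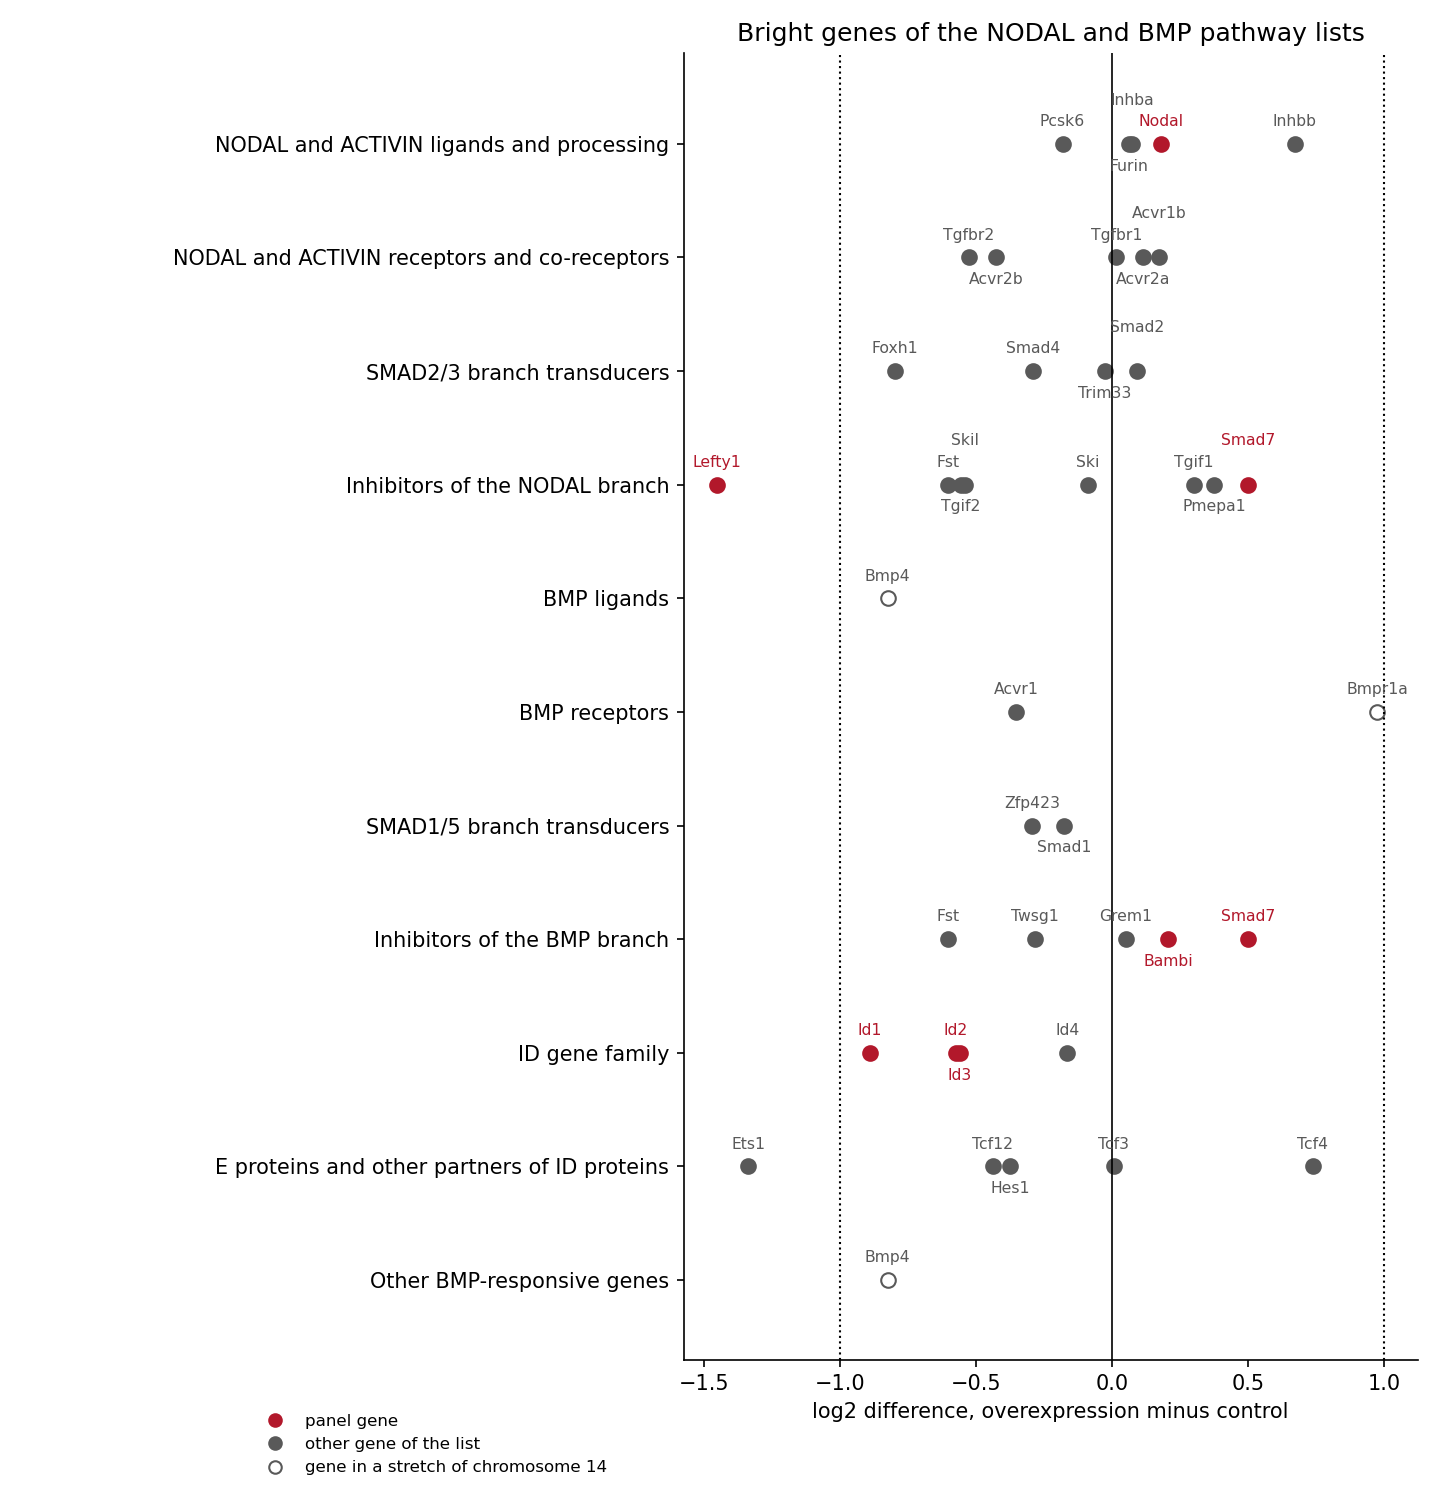
Log2 difference, overexpression minus control, of the bright genes of each pathway list, on the brightest probe set of each gene. Red points are panel genes, grey points other genes of the list, and open points genes in a stretch of chromosome 14. Dotted lines mark 2-fold, which Lefty1 at -1.45 and Ets1 at -1.34 pass.

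In the BMP branch, Bmp4 was the only bright ligand gene. It stood at 9.28 in overexpressing cells and 10.10 in control cells, a difference of -0.83. The type I receptor gene Bmpr1a went the other way on all 4 of its probe sets, with differences between 0.97 and 1.46. Both genes lie on chromosome 14 in stretches whose bright genes differ together, Bmp4 among 137 with a median of -0.59 and Bmpr1a among 70 with a median of 1.08. The differences of these genes cannot be told apart from those of their stretches. Outside the stretches, the receptor gene Acvr1 stood at -0.35 on its only bright probe set, and its dim probe sets stood at 0.43 and -0.21.

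Smad1, a transducer of BMP signals, stood at -0.18 on its brighter probe set and -0.66 on its dimmer one, which was bright through the control array alone, and Zfp423, which encodes a SMAD partner, at -0.30. Smad5, added after its value was seen, was dim, with signals of 7.77 in overexpressing cells and 7.84 in control cells. Inhibitors of the BMP branch had a median of 0.02 over 8 measured members, of which 5 were bright, 2 lower and 3 higher. Besides Smad7 and Fst, Twsg1, which encodes a BMP-binding protein and was bright through the control array alone, stood at -0.28. The dim probe sets of Twsg1 stood at 0.75 and 0.41. Of the other BMP-responsive genes, only Bmp4 was bright among 7 measured, so this list gave 1 bright value.

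Partners of ID proteins had a median of -0.38 over 5 bright genes and went in different directions. Without _s_at, _x_at and _a_at probe sets that median was 0.01. Ets1, a transcription factor gene, stood at 6.77 in overexpressing cells and 8.11 in control cells, a difference of -1.34 on its only bright probe set. That probe set reached the brightness limit on the control array alone, and the dim probe sets of Ets1 stood at -0.49 and 0.23. Tcf4, which encodes an E protein, was higher on its brightest probe set, at 11.13 in overexpressing cells and 10.39 in control cells, a difference of 0.74. Its 5 bright probe sets ranged from 0.06 to 1.13, while its dim probe set stood at -1.21. Tcf12, also an E protein gene, stood at -0.44, with its other bright probe set at -0.47. Tcf3, a further E protein gene added after its value was seen, stood at 0.01.

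The labelled cell type was checked against markers. All 8 measured embryonic stem cell markers were bright, with signals from 11.56 to 14.83 in overexpressing cells and from 11.51 to 14.85 in control cells. Of 12 measured feeder fibroblast markers 9 were bright, 4 higher and 5 lower, with a median over the 12 of -0.02. Their summed linear signal was 6910.2 in overexpressing cells and 6849.6 in control cells, and Col3a1 stood at 10.27 in overexpressing cells and 10.31 in control cells. No fibroblast marker was below the floor on both arrays. Primitive streak and extraembryonic endoderm markers each had 1 bright gene, Eomes and Dab2, at differences of 0.20 and 0.06 on the brightest probe set. The other bright probe set of Eomes stood at -0.35, and Gsc was below the floor on both arrays.

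Trophoblast markers were lower together with Lefty1 and the ID genes. All 4 bright markers were lower, with Cdx2 at -1.89, Krt8 at -1.43, Krt18 at -1.25 and Tfap2c at -0.43. Only its control signal put Cdx2 over the brightness limit. The summed linear signal of the 5 measured markers was 1927 in overexpressing cells and 3846 in control cells. Elf5, a defining trophoblast factor, was below the floor on both arrays, at 2.17 in overexpressing cells and 4.90 in control cells. The part of these transcripts in the differences of Lefty1 and the ID genes was not tested.

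**Figure D4:**
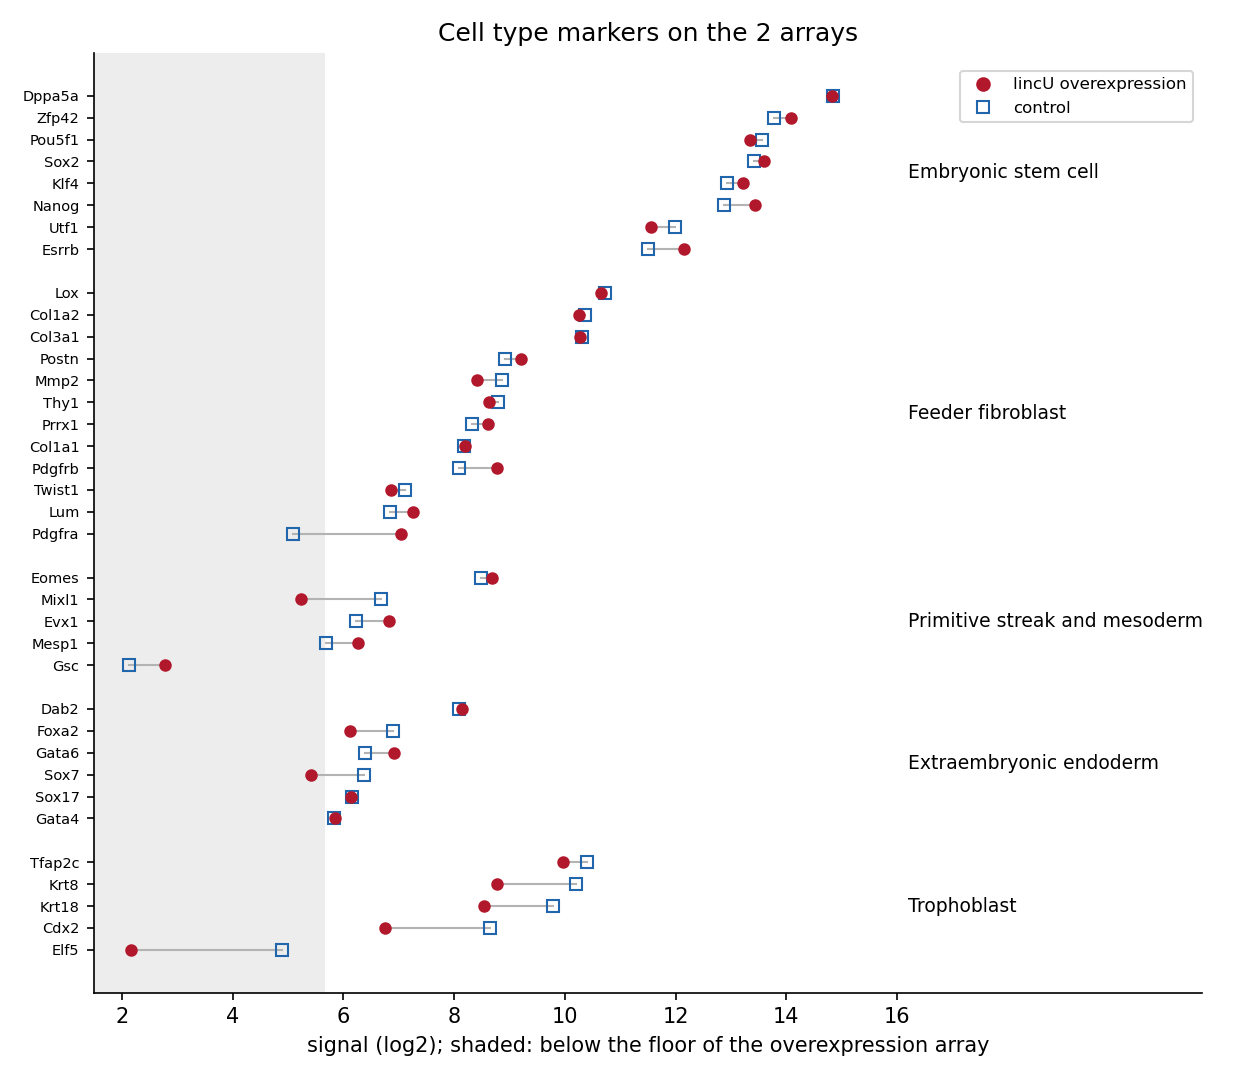
Log2 signal of each measured cell type marker in overexpressing cells (red points) and control cells (open blue squares), 1 array each, with signals below the floor of the overexpression array shaded. Embryonic stem cell markers lie above 11 on both arrays, and the trophoblast markers Krt8, Krt18 and Cdx2 lie further left in overexpressing cells.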

How the data were processed

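RNA of lincU-overexpressing and control cells was labelled with biotin and hybridised to Affymetrix 3' arrays, 1 per group, per the labels' protocols. The authors deposited a log2 signal for each probe set on each array. The submitters' processing notes name MAS5 and affy, with no version or role. The log2 scale was read from the values, which run from 0 to 15.26. No source used here gives the scaling target. The deposited table gave 16994 probe sets, of which 15273 had a single gene symbol in the platform annotation, 501 several and 1156 none, besides 64 controls. Symbols were updated by gene ID through RefSeq GRCm38.p6, where 15252 matched.

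Values were compared unscaled. A floor was set on each array at the 25th percentile of its named probe sets, 5.65 for overexpression and 5.73 for control, and lower values were raised to it. The probe set of highest mean signal stood for a gene. Called means bright and at least 2-fold or 1.5-fold apart. No p-value was computed. The named genes were all panel genes and up to 3 bright genes of largest difference per list; other names are described as added later, and markers are named to describe their lists. Members and lists were chosen with earlier results of these data known, as were the bounds of the chromosome stretches, from Abhd6 to Ghitm and Tspan14 to Tmtc4 on 14, and Rad18 to Resf1 on 6. The 10 alternatives changed scaling, floor, brightness, probe set choice or genes counted. The counting rule was tested on simulated data whose effects were larger than any panel difference. It was not tested at the sizes reported for the panel. Calculations used Python 3.11.15, pandas 2.3.3 and statsmodels 0.14.6.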

Additional observations from a re-analysis of the deposited data

How the results depend on the processing

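No paired analysis was possible because each group had 1 array and no result comes from a test. Over the settings in which it was measured, main and alternatives together, Lefty1 differed by -1.48 to -1.40, Id1 by -0.89 to -0.84, Id3 by -0.57 to -0.50, Smad7 by 0.49 to 0.55, Nodal by 0.17 to 0.26 and Bambi by 0.21 to 0.26. With probe sets averaged, Id2 and the median of the panel both stood at -0.30. Without the _s_at, _x_at and _a_at probe sets, Id1 and Id2 were not measured, 1 panel gene was at least 1.5-fold lower and the median of the panel was 0.18. Of the 118 panel values under the 10 alternatives, 114 moved by less than the SD of 0.23 or, for counts, by at most 1.5 times. Much of this was fixed in advance. The panel probe sets lie above the floor and outside the stretches, and brightness does not enter a difference. Changes of floor, brightness or stretches therefore could not move the panel differences, and averaging probe sets could move only those of Nodal and Id2. The median of all bright genes was 0.06 with median centring, -0.01 with quantile normalization and 0.00 with a loess trend subtracted.

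With no brightness rule 226 genes were at least 2-fold lower and 153 higher, against 73 and 86. With brightness at the 75th percentile the counts were 15 and 37, and without the genes of the chromosome stretches 62 and 44. The median of the BMP receptor list was 0 without those genes. Without the _s_at, _x_at and _a_at probe sets the median of the partners of ID proteins was 0.01. Detection calls were not used here, so the floor and the brightness rule stand in for signal over background.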
